A study of Mus musculus with 6 samples.

Results

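The genes for translation initiation and elongation factors were examined in mouse T helper 17 (Th17) cells lacking GOT1, the cytosolic aspartate transaminase, and in wild-type Th17 cells. They were all protein-coding genes whose symbol begins with Eif1 to Eif6, Eef1 or Eef2, without the eIF2 kinases (Eif2ak genes) and without Eif2s3y. This rule took 63 of the 54532 genes in the deposited table, of which 22046 were protein-coding, and it used no measured value. The first group was made of 3 GOT1-/- libraries, from naive CD4+ T cells of mice lacking GOT1 specifically in T cells. The second was made of 3 WT libraries, from the same cells of C57BL/6 mice. All mice were 6 to 10 weeks old and of either sex. The driver of the T cell deletion and the deleted part of Got1 were not given in the sources used here. Nor do the labels say which animals the replicates came from, and the p-values therefore capture the spread among these libraries, which may be technical. Cells of both genotypes were activated on plates coated with anti-CD3 (5 ug/ml), with soluble anti-CD28 (2 ug/ml), under Th17 conditions: 2.5 ng/ml TGF-beta, 10 ng/ml each of the cytokines IL-23, IL-6 and IL-1beta, and 2 ug/ml each of blocking antibodies to IL-4 and IFN-gamma. Medium was renewed on day 2 and RNA was extracted on day 4.

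Translation starts when eIF2, carrying the initiator tRNA, joins eIF1, eIF1A, eIF3 and eIF5 on the small ribosomal subunit. The eIF4F complex (the cap-binding protein eIF4E, the scaffold eIF4G and the helicase eIF4A) brings that subunit to the capped end of an mRNA, and the 4E-BP proteins block this step by holding eIF4E until mTORC1 phosphorylates them. eIF2B recharges eIF2 with GTP, a step that the eIF2 kinases restrain under amino acid shortage and other stresses. During elongation eEF1A delivers aminoacyl-tRNAs, the eEF1B subunits recharge eEF1A, eEF2 moves the ribosome along, and eIF5A, which carries the modified residue hypusine, helps ribosomes over difficult peptide bonds. T cells build up this machinery when they leave quiescence and start to divide.

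Library totals were 20646004, 22541410 and 17557436 counts in GOT1-/- replicates 1 to 3 and 19623164, 21239075 and 16463752 counts in WT replicates 1 to 3. Got1 itself had 332, 339 and 300 counts in GOT1-/- replicates 1 to 3, against 3284, 3524 and 2873 counts in WT replicates 1 to 3, and was called lower (log2 fold change -3.38, SE 0.08, adjusted p = 2.15e-14). Here and below, levels are counts scaled to a library size of 1000000 (CPM), fold changes are GOT1-/- over WT, and adjusted p-values come from the quasi-likelihood test of edgeR, with Benjamini-Hochberg adjustment over the 12873 genes tested, with a call at an adjusted p under 0.05. Levels of different genes are compared only per kb of the gene length in the deposited table. This length can exceed that of the longest single transcript, so the order of genes by level depends on it. In bulk RNA, a change in the number of cells of a type and a change in RNA per cell cannot be told apart.

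Of the 63 factor genes, 59 had enough reads to be tested. Eif4e1b and Eef1a2, the tissue-restricted relatives of Eif4e and Eef1a1, had 0 counts in all 6 libraries, which allows up to 0.133 to 0.181 CPM per library. Eif4ebp3 had 3, 2 and 5 counts in GOT1-/- and 1, 4 and 4 counts in WT replicates, and Eef1akmt3 had 7, 11 and 9 counts in GOT1-/- and 3, 3 and 6 counts in WT replicates. These 4 genes were too low to test.

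Among the 59 tested genes, 22 rose in GOT1-/- cells (37.3%), 1 fell (1.69%) and 36 were not called. Over all genes tested, 43.8% were called, 22.9% higher and 21.0% lower. The share of factor genes called in either direction, 39.0%, was thus near that of all genes. Within it, higher calls were more frequent and lower calls less frequent than over all genes, as counts without a test of the list. At an unadjusted p under 0.05, 29 factor genes passed, 4 of them with a negative fold change (Eif2a, Eif3a, Eif3e and Eif5). The gene that fell was Eif2a. The median log2 fold change was 0.14 over the factor genes, 0.01 over all genes tested and 0.02 over protein-coding genes. Fold changes ran from -0.45 to 0.84 on the log2 scale, with 43 positive and 16 negative, and the median SE was 0.08. The levels of the 3 GOT1-/- libraries all lay above the WT libraries for 27 factor genes (45.8%, against 27.7% of all genes) and all below them for 7 (11.9%, against 25.8%), so that 57.6% did not overlap in either direction, against 53.4% of all genes. Only 4 called genes reached a 1.5-fold change, Eif4ebp1, Eif5a, Eif6 and Eef1e1, and all 4 were higher. Of 48 tested initiation factor genes 17 were higher and 1 was lower, and of 11 tested elongation factor genes and modifiers 5 were higher and 0 were lower, with DESeq2 and limma-voom making the same calls. In the plot of fold changes by factor, the calls are spread over most of the factor groups.

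**Figure D1:**
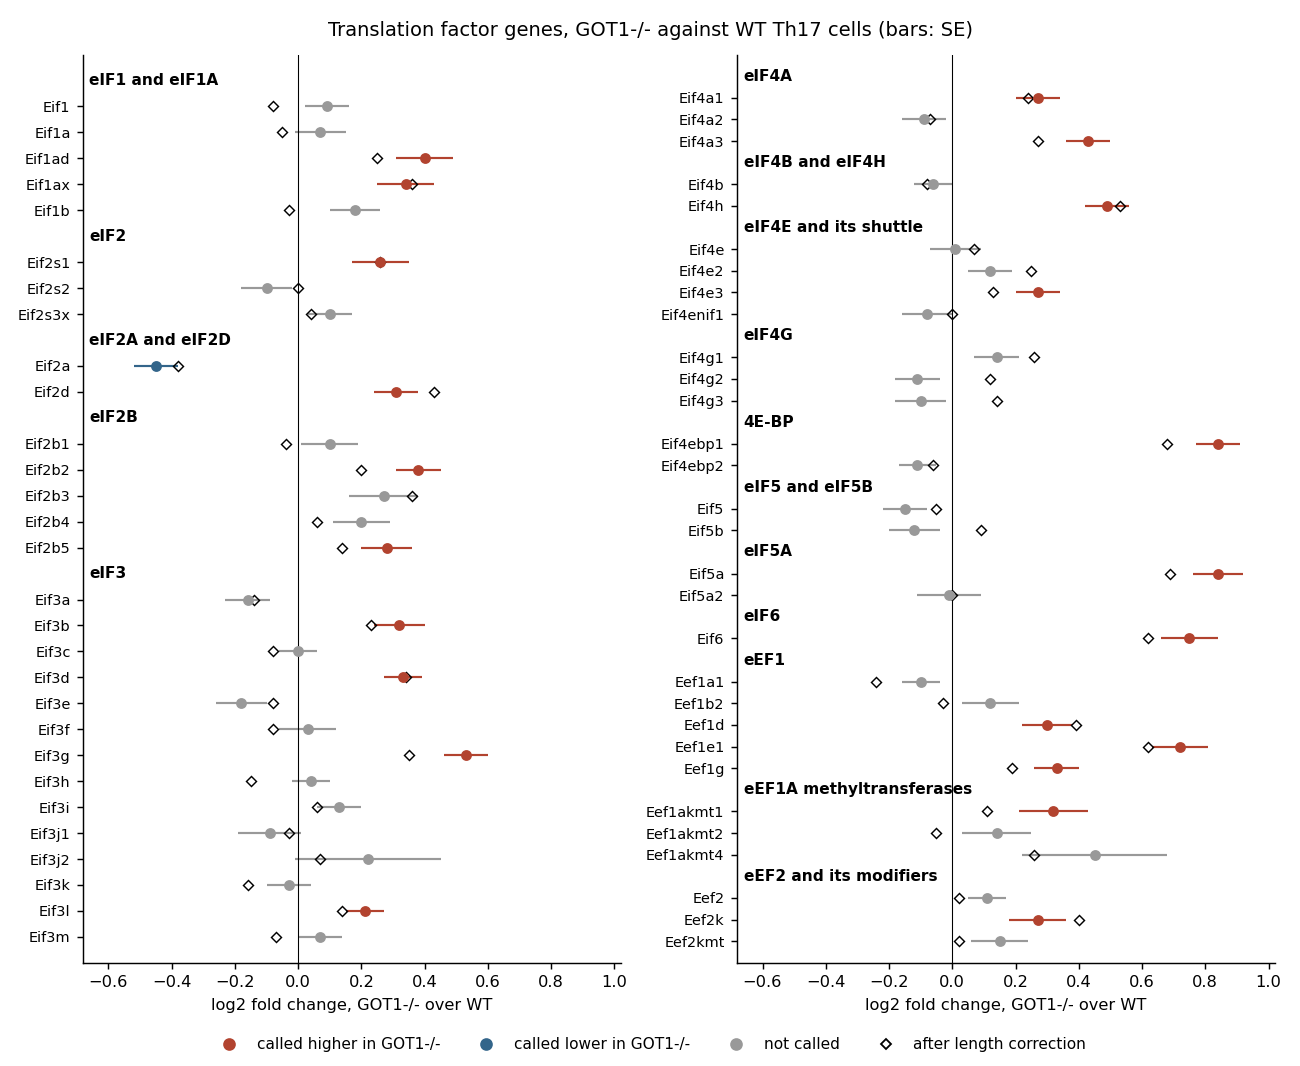
Log2 fold change of GOT1-/- over WT for the 59 tested factor genes, grouped by factor, with SE bars; red points were called higher in GOT1-/- cells, the blue point was called lower, grey points were not called, and open diamonds give the value after a correction for gene length. The 22 higher genes include Eif4ebp1 and Eif5a at 0.84, and the lower gene is Eif2a at -0.45.

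Promoter sequence, which the selection did not use, was also read. The letters CACGTG, the canonical E-box, which reads the same on both strands and is recognised by MYC, MAX and related factors, were searched in the RefSeq promoter windows of build GRCm38.p6 (250 bases before to 50 bases after a gene start). Such windows were given for 47 of the 63 genes, and 13 of the 47 (27.66%) held CACGTG, against 9.2% of 16496 protein-coding genes, a difference that was not tested. The 16496 genes were taken whatever their counts, and only 11526 protein-coding genes had enough reads to be tested. Nearly all of the 47 factor genes had enough, so the 2 sets are unlike in expression. As a second motif, TGATGNAA, a core of amino acid response elements, was searched on both strands and was present in 2 of the 47 (4.26%), Eef2k and Eif2s3x, against 3.99% of the same protein-coding genes. Genes without a window, among them Eif4ebp1, Eif6, Eef1d and Eef1g, were searched for neither motif. Of these motifs CACGTG is shown here, in the 60 bases around it, because Eif5a and Eif4a1 rose in GOT1-/- cells whereas Eef2 and Eif4g1, which hold it as well, were not called. Bases run 5′ to 3′ on the gene's strand and capitals mark the motif.
Eif5a, chr11:69921428-69921487, minus strand: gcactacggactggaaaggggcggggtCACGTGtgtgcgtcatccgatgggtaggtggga
Eif4a1, chr11:69672580-69672639, minus strand: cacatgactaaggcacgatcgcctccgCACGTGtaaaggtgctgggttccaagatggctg
Eef2, chr10:81176561-81176620, plus strand: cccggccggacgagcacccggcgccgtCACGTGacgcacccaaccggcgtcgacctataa
Eif4g1, chr16:20672646-20672705, plus strand: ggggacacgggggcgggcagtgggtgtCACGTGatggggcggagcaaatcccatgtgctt
Counted from the RefSeq start of the window shown, the motif began 74 bases before it for Eif5a, 189 for Eif4a1, 43 for Eef2 and 54 for Eif4g1. For Eif5a and Eif4g1 that start lies inside the gene span of the deposited table, downstream of the gene start given there. Another CACGTG began 178 bases before a different RefSeq start of Eif5a, and another began 15 bases after the Eif4g1 start. Of the 13 genes with CACGTG, 4 were higher (30.8%: Eef2k, Eif4a1, Eif4h and Eif5a) and 0 were lower, with a median log2 fold change of 0.14. Of the 33 tested genes with a window and no CACGTG, 12 were higher (36.4%) and 1 was lower (3.03%), with a median of 0.12. Over all genes tested, 22.9% were higher and 21.0% lower. A match of letters is a description of these windows, not a bound site.

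Of the 2 tested 4E-BP genes, Eif4ebp1 rose and Eif4ebp2 was not called. Eif4ebp1 (ENSMUSG00000031490, chromosome 8, 27260329 to 27276674 on GRCm38, plus strand) encodes 4E-BP1, a repressor of cap-dependent initiation and a target of the transcription factor ATF4. It had 147, 151 and 161 CPM in GOT1-/- replicates 1 to 3, against 87.4, 88.5 and 79.7 CPM in WT replicates 1 to 3. The lowest GOT1-/- library was thus well above the highest WT library. Its mean was 153 ± 7.21 CPM in GOT1-/- and 85.2 ± 4.76 CPM in WT cells (SD, n = 3 each), a 1.79-fold increase (log2 fold change 0.84, SE 0.07, adjusted p = 2.13e-07). Eif4ebp2, which encodes the related repressor 4E-BP2, had 312, 303 and 295 CPM in GOT1-/- and 330, 334 and 315 CPM in WT replicates, and was not called (log2 fold change -0.11, adjusted p = 0.196). The ratio of Eif4ebp1 to Eif4ebp2 counts per kb was 1.24, 1.31 and 1.44 in GOT1-/- and 0.697, 0.698 and 0.666 in WT libraries, so that Eif4ebp1 was the more abundant transcript per kb in GOT1-/- cells and the less abundant in WT cells. The ratio of Eif4ebp1 to Eif4e counts per kb was 3.07 ± 0.184 in GOT1-/- and 1.72 ± 0.179 in WT cells (SD, n = 3 each), Eif4e being the gene of the protein that 4E-BP1 binds.

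Of the 4 tested genes for cap-binding proteins and their carrier, 1 rose. Eif4e had 124, 134 and 153 CPM in GOT1-/- and 132, 133 and 145 CPM in WT replicates, overlapping ranges with a log2 fold change of 0.01 (SE 0.08, adjusted p = 0.962). Eif4e2, encoding the 4EHP protein that binds caps without recruiting eIF4G, averaged 110 ± 5.41 CPM in GOT1-/- and 102 ± 4.64 CPM in WT cells (log2 fold change 0.12, adjusted p = 0.194). Eif4e3, an atypical family member, was the gene that rose, with 85.1, 81.7 and 88.0 CPM in GOT1-/- and 71.6, 70.7 and 68.4 CPM in WT replicates (log2 fold change 0.27, adjusted p = 0.00493). After a correction for gene length, given further on, the call on Eif4e3 was lost (adjusted p = 0.121, and 0.00233 to 0.121 over all alternatives). Eif4e2 was in turn called higher after that correction (0.25, adjusted p = 0.00702, and 0.00266 to 0.471 over all alternatives). After a correction for length and GC content 3 of the 4 genes were called higher, Eif4e2 at 0.23, Eif4e at 0.18 (adjusted p = 0.0361, and 0.0361 to 0.993 over all alternatives) and Eif4e3 at 0.23. Eif4enif1, whose product 4E-T carries eIF4E into the nucleus and to P-bodies, averaged 79.4 ± 7.23 CPM in GOT1-/- and 84.2 ± 2.05 CPM in WT cells (log2 fold change -0.08, adjusted p = 0.42).

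None of the 3 eIF4G scaffold genes was called by edgeR, DESeq2 or limma-voom, and 0 of them had an unadjusted p under 0.05. Eif4g1, the main scaffold, had 448, 471 and 411 CPM in GOT1-/- and 402, 388 and 419 CPM in WT replicates (log2 fold change 0.14, adjusted p = 0.123). Eif4g2, encoding DAP5, a scaffold that lacks the eIF4E-binding region, averaged 810 ± 32.6 CPM in GOT1-/- and 873 ± 44.8 CPM in WT cells (log2 fold change -0.11, adjusted p = 0.207). Eif4g3 averaged 98.4 ± 11.4 CPM in GOT1-/- and 106 ± 3.09 CPM in WT cells (log2 fold change -0.10, adjusted p = 0.349). These genes are among the longest members, and their values moved with the length correction: Eif4g1 was then called higher at 0.26 (adjusted p = 0.00275, and 0.00168 to 0.484 over all alternatives), and Eif4g2 and Eif4g3 changed sign to 0.12 and 0.14 without a call. After the correction for length and GC content 2 of the 3 were called higher, Eif4g1 at 0.16 (adjusted p = 0.0409) and Eif4g2, with its sign changed, at 0.18 (adjusted p = 0.027, and 0.027 to 0.44 over all alternatives).

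Of the eIF4A helicase genes, 2 of 3 rose. Eif4a1, the helicase of eIF4F in dividing cells, had 1049, 1091 and 1271 CPM in GOT1-/- and 936, 981 and 915 CPM in WT replicates (log2 fold change 0.27, adjusted p = 0.00775). Eif4a3, which belongs to the exon junction complex rather than to eIF4F, had 150, 164 and 176 CPM in GOT1-/- and 118, 126 and 119 CPM in WT replicates (log2 fold change 0.43, adjusted p = 0.000154). For both, all 3 GOT1-/- libraries lay above all 3 WT libraries. Eif4a2, the paralogue of Eif4a1 that is more abundant in resting tissues, had 364, 311 and 324 CPM in GOT1-/- and 346, 348 and 373 CPM in WT replicates (log2 fold change -0.09, adjusted p = 0.316). The ratio of Eif4a1 to Eif4a2 counts per kb was 4.23 ± 0.641 in GOT1-/- and 3.28 ± 0.228 in WT cells. Of the 100-base stretches of Eif4a1 transcripts, 22.43% were shared with other genes, mainly a processed pseudogene, so its count is uncertain to that extent.

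Of the helicase cofactors Eif4h rose and Eif4b was not called. Eif4h (chromosome 5, 134619721 to 134639490 on GRCm38, minus strand), which stimulates eIF4A, had 424, 445 and 501 CPM in GOT1-/- and 325, 319 and 333 CPM in WT replicates. It rose 1.40-fold (log2 fold change 0.49, SE 0.07, adjusted p = 4.40e-05). Eif4b, the other eIF4A cofactor and a substrate of S6 kinase, had 681, 704 and 691 CPM in GOT1-/- and 737, 708 and 714 CPM in WT replicates (log2 fold change -0.06, adjusted p = 0.485). The ratio of Eif4b to Eif4h counts per kb was 1.89 ± 0.153 in GOT1-/- and 2.75 ± 0.0764 in WT cells (SD, n = 3 each). Like the other ratios given here, it is a description and was not tested.

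**Figure D2:**
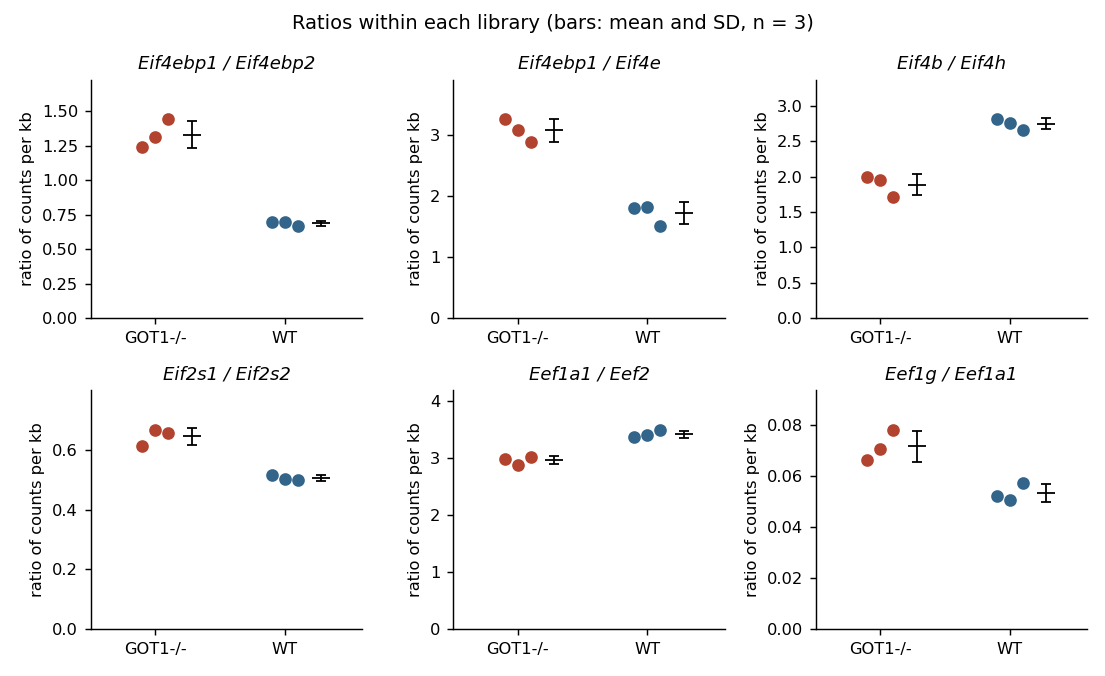
Ratios of counts per kb between related factor genes in each library (points), with GOT1-/- on the left and WT on the right of each panel, and mean and SD (n = 3). Eif4ebp1 over Eif4ebp2 was 1.24 to 1.44 in GOT1-/- and 0.666 to 0.698 in WT libraries, and Eif4b over Eif4h was lower in every GOT1-/- library than in any WT library.

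Among the genes that recruit the initiator tRNA, Eif2s1 was called higher and the other eIF2 subunit genes were not called. Eif2s1 encodes eIF2-alpha, the subunit that the eIF2 kinases phosphorylate, and had 167, 183 and 206 CPM in GOT1-/- against 146, 147 and 172 CPM in WT replicates. The groups overlapped slightly, and the log2 fold change was 0.26 (SE 0.09, adjusted p = 0.0205). This call was lost without WT replicate 1, WT replicate 2, GOT1-/- replicate 2 or GOT1-/- replicate 3, with adjusted p-values of 0.000145 to 0.109 over all alternatives. Eif2s2, the beta subunit, averaged 392 ± 30.8 CPM in GOT1-/- and 419 ± 46.4 CPM in WT cells (log2 fold change -0.10, adjusted p = 0.348). Eif2s3x, the X-linked gamma subunit, averaged 266 ± 7.57 CPM in GOT1-/- and 249 ± 17.5 CPM in WT cells (log2 fold change 0.10, adjusted p = 0.273), and 35.26% of its 100-base stretches were shared with a processed pseudogene. The ratio of Eif2s1 to Eif2s2 counts per kb was 0.613, 0.666 and 0.657 in GOT1-/- and 0.515, 0.501 and 0.498 in WT libraries, with no overlap.

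Eif2a and Eif2d, whose products can place a tRNA on the ribosome without eIF2, went in opposite directions. Eif2a (ENSMUSG00000027810, chromosome 3, 58525821 to 58557501 on GRCm38, plus strand) encodes eIF2A, a single-chain protein unrelated to the eIF2-alpha subunit. It had 142, 141 and 146 CPM in GOT1-/- replicates 1 to 3, against 194, 190 and 202 CPM in WT replicates 1 to 3. All 3 GOT1-/- libraries were below all 3 WT libraries by a wide margin. The mean was 143 ± 2.94 CPM in GOT1-/- and 195 ± 6.31 CPM in WT cells (SD, n = 3 each), 1.36-fold lower in GOT1-/- cells (log2 fold change -0.45, SE 0.07, adjusted p = 4.01e-05). Eif2d had 61.1, 63.1 and 64.1 CPM in GOT1-/- and 51.5, 49.4 and 51.4 CPM in WT replicates (log2 fold change 0.31, adjusted p = 0.00269). Both genes are long, 6118 bp and 7374 bp in the deposited table, and both calls were kept in every alternative run, including the corrections for gene length and GC content.

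All 5 subunit genes of eIF2B, the exchange factor of eIF2, had positive fold changes and 2 rose. Eif2b2, the beta subunit, had 103, 107 and 113 CPM in GOT1-/- and 83.8, 84.3 and 79.7 CPM in WT replicates (log2 fold change 0.38, adjusted p = 0.000385). The Eif2b2 call was lost after the correction for length and GC content (adjusted p = 0.0648, and 1.34e-05 to 0.0648 over all alternatives). Eif2b5, the catalytic epsilon subunit, had 89.0, 91.8 and 107 CPM in GOT1-/- and 80.7, 79.4 and 76.5 CPM in WT replicates (log2 fold change 0.28, adjusted p = 0.00866). The length correction ended the Eif2b5 call (adjusted p = 0.119, and 0.00245 to 0.241 over all alternatives). Eif2b3, the gamma subunit, lay just outside the threshold (log2 fold change 0.27, adjusted p = 0.0517), Eif2b4, the delta subunit, had 0.20 (adjusted p = 0.0664) and Eif2b1, the alpha subunit, 0.10 (adjusted p = 0.392). Eif2b3 was called higher in 7 of the 17 alternatives, among them the correction for length (0.36, adjusted p = 0.0136), that for length and GC content (0.39, adjusted p = 0.00573) and the comparison without GOT1-/- replicate 1, with adjusted p-values of 0.00493 to 0.19 over all alternatives. After the correction for length and GC content only 1 of the 5 genes, Eif2b3, was called higher. Eif2b1 and Eif2b4 then changed sign, to -0.02 each. The exons of Eif2b4 overlap those of Snx17 on the opposite strand, and the strand setting of the counts was not given in the sources used here.

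eIF1 and eIF1A keep the scanning ribosome on the lookout for a start codon. Of their 5 genes Eif1ax and Eif1ad rose. Eif1ax, the X-linked eIF1A gene, had 111, 122 and 148 CPM in GOT1-/- and 93.1, 102 and 107 CPM in WT replicates (log2 fold change 0.34, adjusted p = 0.00721), and its adjusted p was 0.0501 without WT replicate 1, with 6.83e-05 as the lowest over all alternatives. Its paralogue Eif1a averaged 134 ± 11.6 CPM in GOT1-/- and 127 ± 8.77 CPM in WT cells (log2 fold change 0.07, adjusted p = 0.496). Eif1ad, named for its eIF1A-like domain, had 43.7, 49.9 and 56.4 CPM in GOT1-/- and 36.1, 38.2 and 39.2 CPM in WT replicates (log2 fold change 0.40, adjusted p = 0.00214). Banf1 overlaps 15.33% of the Eif1ad exons on the opposite strand and had 12217 counts over the 6 libraries against 5171 for Eif1ad, so reads of the pair may be mixed. Eif1 had a log2 fold change of 0.09 (adjusted p = 0.35) and Eif1b one of 0.18 (adjusted p = 0.0878).

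The eIF3 complex, the largest initiation factor and the platform that joins the small subunit to eIF4G, was measured through 14 genes. Of these, 4 rose (Eif3b, Eif3d, Eif3g and Eif3l) and 0 fell, with a median log2 fold change of 0.06. The share higher was 28.6%, against 22.9% of all genes, of which 21.0% were lower. After the length correction 21.4% of the eIF3 genes were higher and 14.3% lower, against 21.0% and 19.6% of all genes. Eif3g (chromosome 9, 20894349 to 20898623 on GRCm38, minus strand), whose product contacts mRNA near the entry channel, had 139, 151 and 149 CPM in GOT1-/- and 105, 105 and 94.8 CPM in WT replicates (log2 fold change 0.53, SE 0.07, adjusted p = 2.08e-05). Eif3d, whose product can itself bind the cap of certain mRNAs, had 205, 214 and 220 CPM in GOT1-/- and 168, 171 and 170 CPM in WT replicates (log2 fold change 0.33, adjusted p = 0.000576). Eif3b, a core scaffold that works beside Eif3g and Eif3i, had 334, 381 and 427 CPM in GOT1-/- and 304, 296 and 312 CPM in WT replicates (log2 fold change 0.32, adjusted p = 0.00351). The Eif3b call was lost after the correction for length and GC content (adjusted p = 0.107, and 5.88e-05 to 0.107 over all alternatives). For Eif3g, Eif3d and Eif3b, no GOT1-/- library was as low as a WT library. Eif3l had 255, 260 and 272 CPM in GOT1-/- and 229, 226 and 225 CPM in WT replicates (log2 fold change 0.21, adjusted p = 0.0134), and its call was lost without WT replicate 2 or GOT1-/- replicate 2 and with the length correction (adjusted p = 0.00575 to 0.0705 over all alternatives).

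The other eIF3 genes were not called. Eif3a, the largest subunit, had 583, 583 and 594 CPM in GOT1-/- and 634, 600 and 734 CPM in WT replicates (log2 fold change -0.16, adjusted p = 0.0931). Eif3e averaged 436 ± 42.0 CPM in GOT1-/- and 494 ± 44.1 CPM in WT cells (log2 fold change -0.18, adjusted p = 0.0816). Eif3c averaged 565 ± 15.7 CPM in GOT1-/- and 564 ± 16.2 CPM in WT cells (adjusted p = 0.982). The rest, Eif3f, Eif3h, Eif3i, Eif3j1, Eif3j2, Eif3k and Eif3m, had log2 fold changes of -0.09 to 0.22 without a call. After the length correction Eif3h was called lower at -0.15 (adjusted p = 0.0433) and Eif3k at -0.16 (adjusted p = 0.0339). With length and GC content they were lower at -0.16 (adjusted p = 0.0194) and -0.19 (adjusted p = 0.00669). Over all alternatives their adjusted p-values reached 0.795 and 0.981. Eif3j1 and Eif3j2 are near copies, with 36.04% and 83.99% of their 100-base stretches shared with other genes, so their separate counts are uncertain.

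Because eIF3 subunits work in one complex, their transcript levels were also compared with each other. Over the 12 subunit genes without the loosely bound Eif3j pair, mean levels per kb ran from 42.9 CPM per kb (Eif3d) to 413 CPM per kb (Eif3h) in GOT1-/- cells and from 34.2 CPM per kb (Eif3d) to 401 CPM per kb (Eif3h) in WT cells. The median was 95.3 CPM per kb in GOT1-/- and 85.2 CPM per kb in WT cells, and the highest level was 9.63 times the lowest in GOT1-/- and 11.7 times in WT cells. By the deposited lengths, Eif3d and Eif3h thus marked the ends in both genotypes. Of the Eif3h 100-base stretches, 11.79% were shared with another gene.

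**Figure D3:**
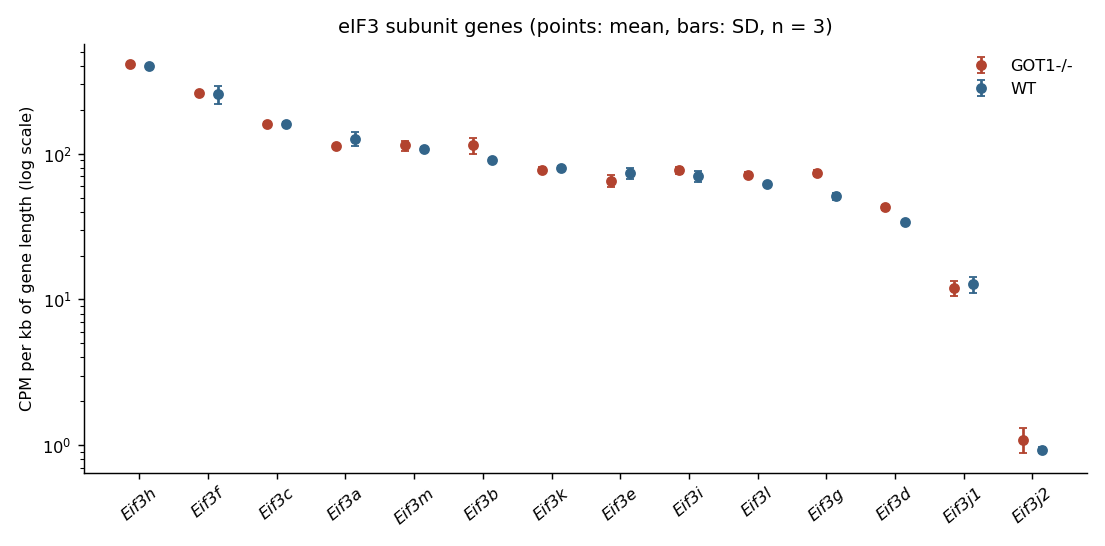
Mean level of the eIF3 subunit genes in CPM per kb of gene length (log scale), with SD (n = 3), GOT1-/- beside WT for each subunit. The order of subunits is largely the same in both genotypes, with Eif3d lowest at 42.9 in GOT1-/- and 34.2 in WT cells and Eif3h highest at 413 in GOT1-/- and 401 in WT cells among the 12 core subunits.

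eIF5, the GTPase-activating protein of eIF2, and eIF5B, the GTPase that joins the ribosomal subunits, were not called by edgeR, DESeq2 or limma-voom, with 1 of the 2 at an unadjusted p under 0.05. Eif5 had 241, 244 and 259 CPM in GOT1-/- and 262, 266 and 300 CPM in WT replicates (log2 fold change -0.15, adjusted p = 0.0881). Eif5b had 99.7, 98.2 and 93.3 CPM in GOT1-/- and 100 to 116 CPM in WT replicates (log2 fold change -0.12, adjusted p = 0.215). For both genes the GOT1-/- libraries lay below the WT libraries, by less than the test calls. Exons of Rev1 overlap 16.85% of the Eif5b exons on the opposite strand.

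Eif6 (ENSMUSG00000027613, chromosome 2, 155819832 to 155826925 on GRCm38, minus strand) encodes the factor that keeps free large subunits from joining small ones and takes part in making large subunits. It had 148, 165 and 154 CPM in GOT1-/- replicates 1 to 3, against 96.2, 101 and 79.5 CPM in WT replicates 1 to 3. Every GOT1-/- library was above every WT library. The mean was 156 ± 8.88 CPM in GOT1-/- and 92.2 ± 11.2 CPM in WT cells (SD, n = 3 each), a 1.69-fold increase (log2 fold change 0.75, SE 0.09, adjusted p = 3.32e-06).

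Eif5a (ENSMUSG00000078812, chromosome 11, 69916714 to 69921958 on GRCm38, minus strand), named as an initiation factor but best known as the hypusine-bearing elongation and termination factor, rose 1.79-fold. At 690 ± 72.2 CPM per kb of deposited length it was the highest of the initiation factor genes in GOT1-/- cells. At 386 ± 13.7 CPM per kb it came next after Eif3h in WT cells, an order that may differ with transcript lengths. It had 1498, 1593 and 1831 CPM in GOT1-/- replicates 1 to 3, against 921, 882 and 946 CPM in WT replicates 1 to 3. No library of one genotype came near those of the other. The mean was 1641 ± 172 CPM in GOT1-/- and 916 ± 32.6 CPM in WT cells (SD, n = 3 each; log2 fold change 0.84, SE 0.08, adjusted p = 3.55e-07). Its paralogue Eif5a2 was low, with 15.7, 17.7 and 18.5 CPM in GOT1-/- and 16.2, 17.2 and 19.0 CPM in WT replicates, and was not called (log2 fold change -0.01, adjusted p = 0.928). The ratio of Eif5a to Eif5a2 counts per kb was 200 ± 9.52 in GOT1-/- and 111 ± 8.09 in WT cells. The enzymes of hypusine synthesis, were read beside them: Dohh, the hydroxylase of the last step, rose to 13.5 ± 0.543 CPM in GOT1-/- cells, against 6.90 ± 1.07 CPM in WT cells (log2 fold change 0.96, SE 0.13, adjusted p = 1.78e-05), whereas Dhps, the synthase of the first step, was not called, with 29.5 ± 3.01 CPM in GOT1-/- and 26.0 ± 2.00 CPM in WT cells (log2 fold change 0.18, adjusted p = 0.15).

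**Figure D4:**
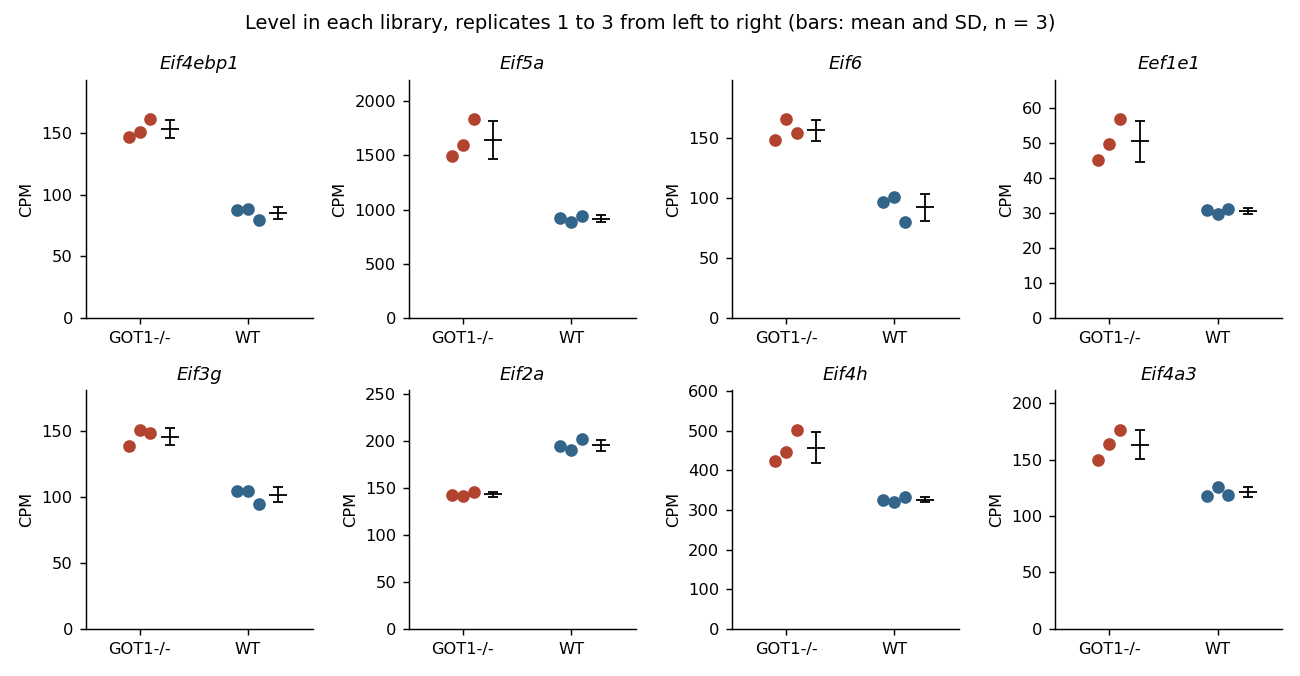
CPM of factor genes with large fold changes in each library (points), GOT1-/- left and WT right in each panel, replicates 1 to 3 from left to right, with mean and SD (n = 3). Eif5a was at 1498 to 1831 CPM in GOT1-/- and 882 to 946 CPM in WT libraries, Eif4ebp1 at 147 to 161 CPM in GOT1-/- and 79.7 to 88.5 CPM in WT libraries, and Eif2a, the lower gene, at 141 to 146 CPM in GOT1-/- and 190 to 202 CPM in WT libraries.

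In the eEF1 group, 3 of 5 tested genes rose and Eef1a1 was not called. Eef1a1, the tRNA carrier and the most abundant factor transcript, had 22686, 21981 and 22364 CPM in GOT1-/- and 24052, 24556 and 23155 CPM in WT replicates. Its GOT1-/- libraries were all lower, with a log2 fold change of -0.10 (adjusted p = 0.203), and it was called lower at -0.24 (adjusted p = 0.00221) after the length correction (0.000198 to 0.438 over all alternatives). Eef1e1 (ENSMUSG00000001707, chromosome 13, 38644207 to 38659058 on GRCm38, minus strand), whose product AIMP3 is a scaffold of the multi-tRNA synthetase complex, had 45.0, 49.6 and 56.6 CPM in GOT1-/- and 30.9, 29.7 and 31.2 CPM in WT replicates. It averaged 50.4 ± 5.83 CPM in GOT1-/- and 30.6 ± 0.842 CPM in WT cells (SD, n = 3 each), a 1.65-fold increase (log2 fold change 0.72, SE 0.09, adjusted p = 1.00e-05).

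The eEF1B subunits exchange GDP for GTP on eEF1A. Eef1g, the structural gamma subunit, had 1569, 1620 and 1822 CPM in GOT1-/- and 1311, 1298 and 1380 CPM in WT replicates (log2 fold change 0.33, adjusted p = 0.0011). Eef1d, an exchange subunit, had 226, 246 and 284 CPM in GOT1-/- and 201, 201 and 210 CPM in WT replicates (log2 fold change 0.30, adjusted p = 0.00481). Eef1b2, the other exchange subunit, had 1169, 1153 and 1407 CPM in GOT1-/- and 1062, 1099 and 1282 CPM in WT replicates, overlapping ranges (log2 fold change 0.12, adjusted p = 0.296). Set against Eef1a1, the ratio of counts per kb of Eef1g was 0.0717 ± 0.00597 in GOT1-/- and 0.0534 ± 0.00337 in WT cells. Counts of Eef1g and Eef1a1 are uncertain, since 49.41% and 26.67% of their 100-base stretches occur in other genes, mostly processed pseudogenes.

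The enzymes that methylate eEF1A were low. Eef1akmt1 had 17.0, 19.2 and 19.3 CPM in GOT1-/- and 14.3, 16.6 and 13.5 CPM in WT replicates (log2 fold change 0.32, adjusted p = 0.0238), and the call was lost in 7 of 17 alternatives, among them the corrections for length and the comparisons without WT replicate 1, WT replicate 3, GOT1-/- replicate 2 or GOT1-/- replicate 3 (adjusted p = 0.0128 to 0.45). Eef1akmt2 averaged 17.3 ± 2.51 CPM in GOT1-/- and 15.7 ± 0.813 CPM in WT cells (adjusted p = 0.347). Eef1akmt4 averaged 3.91 ± 1.18 CPM in GOT1-/- and 2.85 ± 0.472 CPM in WT cells (adjusted p = 0.123).

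The gene of eEF2, the translocase, was not called, and that of its kinase rose. Eef2 had 10165, 10181 and 9882 CPM in GOT1-/- and 9511, 9611 and 8847 CPM in WT replicates (log2 fold change 0.11, adjusted p = 0.16). Eef2k, the kinase that inactivates eEF2, had 33.1, 30.6 and 32.1 CPM in GOT1-/- and 26.5, 27.9 and 24.8 CPM in WT replicates (log2 fold change 0.27, adjusted p = 0.0163). The Eef2k groups did not overlap, but its call was lost without WT replicate 1 or WT replicate 3 (adjusted p = 0.00095 to 0.0672 over all alternatives). Eef2kmt, which methylates eEF2, averaged 20.9 ± 1.22 CPM in GOT1-/- and 18.9 ± 0.298 CPM in WT cells (adjusted p = 0.21), and Alg1 overlaps 17.63% of its exons on the opposite strand. The ratio of Eef1a1 to Eef2 counts per kb was 2.98, 2.88 and 3.02 in GOT1-/- and 3.37, 3.41 and 3.49 in WT libraries, lower in every GOT1-/- library.

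As a whole, the 63 genes took 4.97%, 4.94% and 4.96% of all counts in GOT1-/- replicates 1 to 3 and 4.93%, 4.99% and 4.83% in WT replicates 1 to 3. These shares overlapped. Most of them came from Eef1a1 and Eef2. Without these 2 genes the share was 1.68%, 1.72% and 1.82% in GOT1-/- and 1.55%, 1.56% and 1.62% in WT libraries, higher in every GOT1-/- library.

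Fold changes in this comparison moved with gene length and GC content, for factor genes as for others. Spearman's rho between gene length and log2 fold change was -0.461 over the 59 factor genes and -0.397 over 11526 protein-coding genes, and with GC content it was 0.483 and 0.311. These are descriptions across genes, which share the same 6 libraries. Of the 20 shortest factor genes (up to 2599 bp) 9 were higher and 0 were lower, that is 45.0% and 0%, against 40.4% and 7.67% of protein-coding genes of the same lengths. Of the 19 of middle length 8 were higher (42.1%) and 0 were lower, against 26.4% and 15.2%. Of the 20 longest (5236 bp and more) 5 were higher (25.0%) and 1 was lower (5.0%), against 14.4% and 31.8%. Among the shortest genes the share higher was thus near that of other genes of their size.

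**Figure D5:**
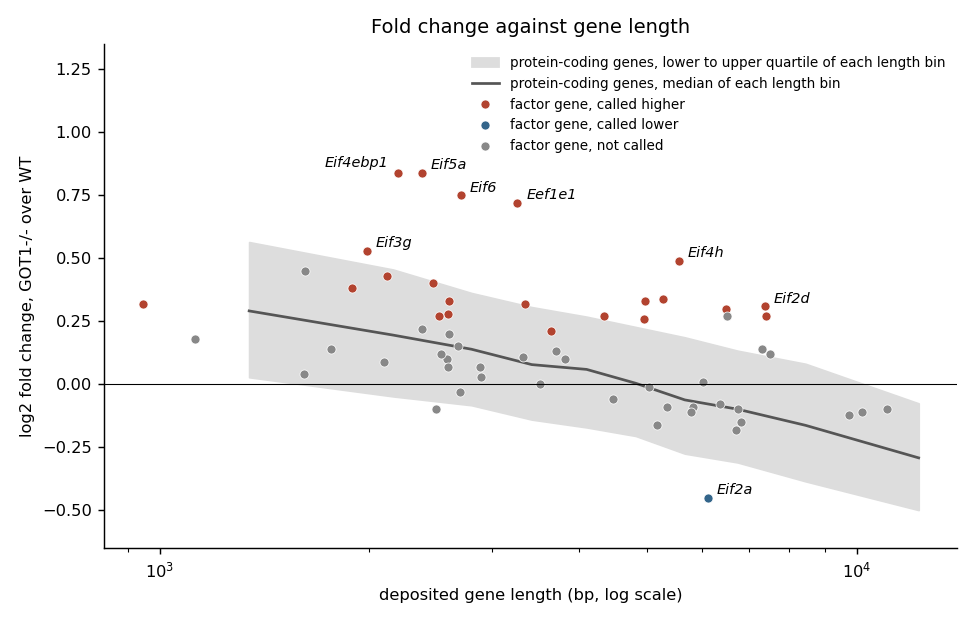
Log2 fold change of GOT1-/- over WT against deposited gene length (bp, log scale) for the 59 tested factor genes (points, coloured by call), with the median (line) and the range between quartiles (band) of protein-coding genes in 10 bins of equal size. The line falls from 0.29 in the bin of the shortest genes to -0.29 in the bin of the longest, and Eif4ebp1, Eif5a, Eif6 and Eef1e1 lie above the band.

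When each library's trend over length was removed, 21 factor genes were higher and 4 were lower, with a median of 0.07, against 40.7% of all genes called, 21.0% higher and 19.6% lower. With length and GC content removed together, 23 were higher and 4 were lower, with a median of 0.14, against 41.6% of all genes called, 21.5% higher and 20.1% lower. In each case 19 of the 23 calls were kept in the same direction and 4 were lost: Eif2b5 and Eef1akmt1 with either correction, Eif3l and Eif4e3 with that for length, and Eif2b2 and Eif3b with that for both. The lower genes after the length correction were Eif2a, Eif3h, Eif3k and Eef1a1. Eif4ebp1 then had a log2 fold change of 0.68, Eif5a of 0.69, Eif6 of 0.62 and Eef1e1 of 0.62, all still called. In all, 14 of the 23 calls were kept in each of the 17 alternatives: Eif1ad, Eif2a, Eif2d, Eif3d, Eif3g, Eif4a1, Eif4a3, Eif4h, Eif4ebp1, Eif5a, Eif6, Eef1d, Eef1e1 and Eef1g.

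The genes around these factors were counted from lists of the same pathway, and no list was tested as a whole. Among 7 genes of the eIF2 kinases and the opposing phosphatase, 4 fell (57.1%, against 21.0% of all genes). A further gene rose (14.3%, against 22.9% of all genes). All 4 kinase genes fell, Eif2ak2 (PKR, log2 fold change -0.42, adjusted p = 0.00241), Eif2ak4 (GCN2, the sensor of uncharged tRNA, -0.37, adjusted p = 0.00286), Eif2ak1 (HRI, -0.30, adjusted p = 0.00407) and Eif2ak3 (PERK, -0.22, adjusted p = 0.0362). Eif2ak4 had 28.7, 26.5 and 25.1 CPM in GOT1-/- and 33.5, 36.9 and 33.1 CPM in WT replicates, with no overlap. The Eif2ak3 call was lost in 8 alternatives, among them those without WT replicate 1, WT replicate 2, GOT1-/- replicate 2 or GOT1-/- replicate 3 (adjusted p = 0.0235 to 0.135). The gene that rose, Ppp1ca, a catalytic phosphatase subunit (0.31, adjusted p = 0.00428), was not called after either correction. Of the adaptors that aim this phosphatase at eIF2-alpha, Ppp1r15a averaged 46.5 ± 0.889 CPM in GOT1-/- and 49.1 ± 2.07 CPM in WT cells and was not called (log2 fold change -0.08, adjusted p = 0.431), nor was Ppp1r15b. Ppp1r15a was called lower after the correction for length (-0.19, adjusted p = 0.042) and after that for length and GC content (-0.27, adjusted p = 0.00468), with adjusted p-values of 0.00468 to 0.705 over all alternatives.

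Among 11 genes of mTORC1 and the kinases that act on the cap complex, 1 rose (9.09%) and 2 fell (18.2%). Both shares were below those of all genes, 22.9% and 21.0%. Rheb, the GTPase that activates mTORC1, had 58.6, 59.8 and 67.3 CPM in GOT1-/- and 49.2, 50.0 and 46.9 CPM in WT replicates (log2 fold change 0.34, adjusted p = 0.00213). Deptor, an mTOR inhibitor, was low, at 1.44 ± 0.332 CPM in GOT1-/- and 2.85 ± 1.26 CPM in WT cells (-0.96, adjusted p = 0.016), and its call was lost without WT replicate 1 (adjusted p up to 0.168). Rps6kb1, an S6 kinase gene, had -0.22 (adjusted p = 0.0326) and changed sign to 0.07 after correction for length and GC content. Its call was also lost without WT replicate 3, GOT1-/- replicate 2 or GOT1-/- replicate 3 (adjusted p up to 0.667 over all alternatives).

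Among 7 genes of poly-A binding and its partners, 2 rose (28.6%) and 1 fell (14.3%), against 22.9% and 21.0% of all genes. Pabpc1, the main poly-A binding protein, which closes the mRNA loop through eIF4G, had 2439 ± 60.2 CPM in GOT1-/- and 3087 ± 109 CPM in WT cells (log2 fold change -0.34, adjusted p = 0.000344). Its paralogue Pabpc4 went the other way, with 191 ± 5.94 CPM in GOT1-/- and 157 ± 7.08 CPM in WT cells (0.28, adjusted p = 0.00253). Larp1, a repressor of mRNAs for ribosomal proteins and factors, rose by 0.20 (adjusted p = 0.0237), a call lost without WT replicate 1, WT replicate 2 or GOT1-/- replicate 2 (adjusted p up to 0.176).

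Of 8 other initiation and scanning factors, 2 rose (25.0%) and 2 fell (25.0%), near the 22.9% and 21.0% of all genes. Mcts1, the partner of DENR in reinitiation, averaged 40.8 ± 5.49 CPM in GOT1-/- and 30.4 ± 3.61 CPM in WT cells (0.43, adjusted p = 0.00366), and the helicase Ddx3x averaged 396 ± 8.25 CPM in GOT1-/- and 479 ± 24.7 CPM in WT cells (-0.28, adjusted p = 0.00268). Mcts1 was not called after the length correction, nor Ddx3x after that for length and GC content. The retrogene Mcts2, at under 1 CPM in each library, had -1.24 (adjusted p = 0.0278), and the helicase Dhx29 had 0.23 (adjusted p = 0.0448). Both calls were lost without WT replicate 1, WT replicate 2, GOT1-/- replicate 2 or GOT1-/- replicate 3, and that of Mcts2 also without WT replicate 3, with adjusted p-values up to 0.132 for Mcts2 and 0.213 for Dhx29.

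Of 6 tested release and rescue factors, 1 rose (16.7%, against 22.9% of all genes). This was Pelo, which frees stalled ribosomes, with 7.17 ± 1.34 CPM in GOT1-/- and 4.97 ± 0.259 CPM in WT cells (0.53, adjusted p = 0.0141). It was not called without GOT1-/- replicate 2 or after the corrections (adjusted p up to 0.227). Of 8 enzymes of hypusine and of diphthamide, the modified residue of eEF2, 2 rose (25.0%, near the 22.9% of all genes). They were Dohh as given above and Dph3 (0.37, adjusted p = 0.0102, lost without WT replicate 2 with an adjusted p up to 0.0654). Of 10 mitochondrial translation factors, 2 rose and 0 fell, against 22.9% higher and 21.0% lower over all genes. The share that rose was thus near that of all genes. Tsfm, the mitochondrial exchange factor, was at 26.8 ± 0.790 CPM in GOT1-/- and 14.5 ± 2.62 CPM in WT cells (0.88, SE 0.11, adjusted p = 1.33e-05). Its partner Tufm had 0.30 (adjusted p = 0.00258, lost after the corrections).

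Markers of other cells moved with genotype and are given for the whole lists. Beside them, 22.9% of all genes tested were called higher and 21.0% lower. Of 11 T cell and Th17 markers 2 rose (18.2%) and 5 fell (45.5%). The cells expressed Cd4 at 641 ± 9.90 CPM in GOT1-/- and 681 ± 9.48 CPM in WT cells and Il17f at 1012 ± 50.2 CPM in GOT1-/- and 1075 ± 52.8 CPM in WT cells. Summed over 8 myeloid markers the level was 21.1 to 24.6 CPM in GOT1-/- and 6.17 to 10.4 CPM in WT libraries, with 5 of 7 tested higher. Over 7 basophil and mast cell markers it was 22.0 to 25.1 CPM in GOT1-/- and 15.6 to 19.3 CPM in WT libraries, with 4 of 5 tested higher. Kit made up much of this sum and was not called, at 11.3 ± 1.21 CPM in GOT1-/- and 13.8 ± 1.6 CPM in WT cells. The 4 that rose had larger fold changes than the sum, 5.64-fold for Prss34, 4.78-fold for Gata2, 3.40-fold for Cpa3 and 2.57-fold for Mcpt8. Over 8 markers of CD8, NK and gamma-delta T cells it was 60.8 to 65.9 CPM in GOT1-/- and 71.9 to 76.8 CPM in WT libraries, with 3 higher and 1 lower of 6 tested, and Ncr1 at 0 counts in 5 of 6 libraries. Klrd1, an NK receptor gene, was the lower one, at 36.8 ± 1.98 CPM in GOT1-/- and 54.1 ± 2.34 CPM in WT cells. The 3 gamma-delta T cell receptor genes rose against the direction of the sum, Trdc 1.82-fold, Tcrg-C1 2.72-fold and Tcrg-C2 2.08-fold. Over 6 B cell markers it was 3.52 to 3.74 CPM in GOT1-/- and 2.54 to 3.54 CPM in WT libraries, with 0 of 3 tested called and Ms4a1 at 0 counts in 4 of 6 libraries. The sums of myeloid and of basophil and mast cell markers, and each of the 3 gamma-delta T cell receptor genes, were thus higher in every GOT1-/- library than in any WT library, and the part of such cells in the factor values was not tested.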

How the data were processed

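Poly-A RNA of 6 libraries (3 GOT1-/-, 3 WT) was sequenced. The authors deposited a table of raw read counts for 54532 genes, with a gene length in bases shorter than the genomic span. Per the submitters' processing notes, STAR and build GRCm38 were used. The tool that counted reads, its annotation and its use of strand were not given in the sources used here, so how reads of overlapping or near-identical genes were divided cannot be checked. In the deposited table, symbols of 27 genes turned into dates were restored from their IDs, and where 103 symbols were repeated the copy with most counts kept it.

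Counts were compared in edgeR 4.0.16 (R 4.3.3) by the two-sided quasi-likelihood test with genotype as the only term, after filterByExpr (minimum count 10, minimum total 15), with TMM factors of 0.9757 to 1.009 and Benjamini-Hochberg adjustment. CPM values use the TMM-scaled library sizes. Ratios used counts per kb of the deposited length. Alternatives were DESeq2 1.42.0, limma-voom (limma 3.58.1), 3 other scalings, 2 other filters, the replicate number as a block, corrections of each library's smooth trend over length or over length and GC content (natural splines, 5 degrees of freedom, fitted by robust regression), and each library left out in turn. GC content, exon overlap and shared 100-base stretches came from GENCODE M21 (GRCm38), and promoter windows from RefSeq (GRCm38.p6), with 47 of 63 members matched by symbol or gene ID.

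Chi-square values over genes, per degree of freedom, were 3.76 to 13.7 between libraries of one genotype, above sampling noise, so no library was treated as a repeat deposit of another. This does not show that they came from separate animals or cultures. For a gene with 0 counts, 3 counts were used as the upper limit, which covers counting error only. Members and lists were chosen with earlier results of these data known. Every member is accounted for, and the following were named with values: a list of main factors, up to 3 called members with the smallest adjusted p in each factor group, all members of groups of 3 or fewer, and up to 3 called genes of each other list. Other genes are named where a count or an exception called for it, after their values were seen.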

Additional observations from a re-analysis of the deposited data

How the results depend on the processing

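The 22 higher factor genes became 21 to 25 under the 11 alternatives that keep all libraries and 18 to 25 with each library left out in turn, and DESeq2 and limma-voom made the same 23 calls. The single lower call became 2 with library totals only, 2 without a filter, 2 with the replicate block, 4 with the length correction, 4 with length and GC content, and 4 with length correction and replicate block. With each library left out it was 1 to 3, being 2 without WT replicate 1 and 3 without GOT1-/- replicate 3. The median log2 fold change stayed at 0.07 to 0.17. Deviations from the genotype means, correlated over all genes tested, gave 0.059, -0.0258 and 0.0332 for same-numbered libraries. Libraries with different numbers gave -0.103 to 0.0672. Such correlations include counting noise of all genes and cannot settle whether same-numbered libraries shared an animal or a day. With the replicate block 24 factor genes were higher and 2 lower, 26 in all, the added calls being Eif2b3, Eif2b4 and Eif3e. The 4 untested genes were under the filter on low counts.

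Of 1503 values of 89 genes over the alternatives, 1367 kept direction and side of the threshold, 32 gained a call, 53 lost one and 51 changed sign, in 23 genes of which 1 (Rps6kb1) was called. With length and GC content the sign changed for Eif1 (-0.09), Eif1b (-0.08), Eif2s2 (0.14), Eif2b1 (-0.02), Eif2b4 (-0.02), Eif3e (0.08), Eif3f (-0.07), Eif3h (-0.16), Eif3j1 (0.06), Eif4a2 (0.06), Eif4g2 (0.18), Eif4g3 (0.05), Eif5 (0.05), Eif5b (0.15), Eif5a2 (0.14), Eef2 (-0.07), Eef2kmt (-0.04) and Rps6kb1 (0.07). With length alone it changed for Eif1 (-0.08), Eif1a (-0.05), Eif1b (-0.03), Eif2b1 (-0.04), Eif3f (-0.08), Eif3h (-0.15), Eif3m (-0.07), Eif4g2 (0.12), Eif4g3 (0.14), Eif5b (0.09), Eef1b2 (-0.03) and Eef1akmt2 (-0.05), and adding the replicate block gave the same values but for Eif4g2 (0.11). It also changed for Eif4e with library totals only (-0.01), without GOT1-/- replicate 3 (-0.08), without WT replicate 1 (-0.03) and without WT replicate 2 (-0.01), for Eif5a2 with upper-quartile scaling (0.02), without GOT1-/- replicate 1 (0.05) and without WT replicate 3 (0.04), and without WT replicate 3 for Eif3f (-0.09) and Eif3j1 (0.01). With single libraries left out, Eif3f ranged from -0.09 to 0.10 and Eif3j1 from -0.19 to 0.01. The cause of these changes was not tested.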
